A study of Mus musculus with 9 samples.

Results

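The prostaglandin synthesis enzymes described here are 10 genes, taken as the rows whose symbol was Pla2g4a, Ptgs1, Ptgs2, Ptgis, Ptgds, Hpgds, Ptges, Ptges2, Ptges3 or Hpgd. They are 10 of the 20634 genes with a deposited value, and all 10 were among the 15549 that passed the filter on low counts. The levels came from RNA-seq of the left ventricle of C57BL/6 mice aged 6 months. The 9 libraries fell into 4 groups: 3 from delta-sarcoglycan knockout (KO) mice on ifetroban, 2 from KO mice on vehicle, 2 from wild-type (WT) mice on ifetroban and 2 from WT mice on vehicle. Ifetroban blocks the thromboxane-prostanoid receptor and was given in the drinking water at 25 mg/kg/day, starting when the animals were weaned. Vehicle was plain drinking water. All groups were given running wheels at intervals, and all hearts were flushed with PBS before RNA was taken. The labels do not say which part of Sgcd is missing from the KO allele, nor whether replicates are separate animals, so the p-values measure the spread between these samples, which may be technical. For KO ifetroban replicate 1, the title and source name say ifetroban and the treatment label says vehicle, and the title was followed.

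Prostaglandins are lipid signals made on demand from arachidonic acid. Cytosolic phospholipase A2 frees the acid from membranes, the cyclooxygenases turn it into the unstable intermediate prostaglandin H2, and terminal synthases convert that intermediate to prostacyclin, prostaglandin D2, prostaglandin E2 or thromboxane. A dehydrogenase starts the breakdown of prostaglandin E2. In the heart, prostacyclin and prostaglandin E2 are made largely outside the muscle cells, and thromboxane and its precursor act on the receptor that ifetroban blocks, so the comparisons show how the transcripts of the enzymes stood with the disease model and with the block.

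Bases upstream of the transcription start are shown for the enzyme that rose at the first step and for both cyclooxygenases, because Pla2g4a and Ptgs2 are near neighbours on chromosome 1 and Ptgs1 and Ptgs2 carry out the same reaction. The sequences are 250 bases from RefSeq on GRCm38.p6, each ending at the base before a RefSeq start that equals the deposited gene start, and capitals mark a motif found. The Pla2g4a window is chr1:149961291-149961540 on the minus strand, the Ptgs1 window chr2:36230176-36230425 on the plus strand and the Ptgs2 window chr1:150099781-150100030 on the plus strand.
Pla2g4a: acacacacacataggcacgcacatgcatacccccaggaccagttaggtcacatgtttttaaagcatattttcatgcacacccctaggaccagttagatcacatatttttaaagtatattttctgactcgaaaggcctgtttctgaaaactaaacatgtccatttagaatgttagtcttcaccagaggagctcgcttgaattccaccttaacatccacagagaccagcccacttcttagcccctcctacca
Ptgs1: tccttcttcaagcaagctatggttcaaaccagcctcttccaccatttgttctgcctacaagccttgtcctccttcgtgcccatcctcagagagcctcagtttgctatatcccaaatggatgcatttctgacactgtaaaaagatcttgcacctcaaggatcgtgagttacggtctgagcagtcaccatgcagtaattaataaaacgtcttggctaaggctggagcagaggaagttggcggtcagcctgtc
Ptgs2: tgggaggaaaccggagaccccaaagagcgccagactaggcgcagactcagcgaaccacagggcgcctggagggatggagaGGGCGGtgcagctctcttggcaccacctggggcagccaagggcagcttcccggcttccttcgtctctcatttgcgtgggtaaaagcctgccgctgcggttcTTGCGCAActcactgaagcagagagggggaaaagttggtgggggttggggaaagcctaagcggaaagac
Both strands were searched for 7 motifs: the TATA box TATAAA, the E-box CACGTG, the CRE core TGACGT, the GC box GGGCGG, the kappaB-like GGGANTTCC, the C/EBP-like TTNCGCAA and the AP-1-like TGANTCA. The Ptgs2 window held GGGCGG, starting 170 bases before the start, and a match to TTNCGCAA, starting 69 bases before it. Of 32817 promoter windows of 250 bases, 32.7% held GGGCGG and 0.67% held TTNCGCAA. The Ptgs1 and Pla2g4a windows held none of these letters, which says nothing of the factors that bind there. Promoter entries were found for 9 of the 10 genes, and Ptgis has none in the table used.

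Library totals were 21510263 to 30182955 counts. The level of Sgcd, the targeted gene, was 7.30, 12.9 and 13.3 CPM (counts scaled to library size with TMM factors) in KO ifetroban and 9.64 and 8.63 in KO vehicle, against 23.7 and 23.5 in WT ifetroban and 8.36 and 20.9 in WT vehicle. That of the library labelled WT vehicle 1 thus stood inside the span of the KO libraries. The deposited value covers the whole gene, so it does not test for the deletion. The libraries also split by transcript length: the rank correlation (Spearman) of a gene's level, relative to its mean over libraries, with its transcript length over 13051 protein-coding genes was -0.54 in KO ifetroban replicate 1, -0.40 and -0.47 in KO vehicle and -0.49 in the library labelled WT vehicle 1. It was 0.41 to 0.45 in the other 5 libraries. The negative set (4 libraries) holds 1 WT library, the one labelled WT vehicle 1, and the positive set (5 libraries) holds no KO vehicle library. A genotype value within the negative set thus rests on that 1 WT library, taken to vary like the KO libraries. With no WT ifetroban library there, it compares KO with WT under vehicle. Within the positive set, with no KO vehicle library, it compares KO with WT under ifetroban. Neither is a value over both treatments, and between them the set and the treatment cannot be told apart. Sgcd also separated by set, at 7.30 to 9.64 CPM in the negative and 12.9 to 23.7 CPM in the positive set, and the KO libraries alone split likewise. Its log2 change in KO over both treatments was -0.90 ± 0.25 (edgeR, adjusted p = 0.101). It was 0.13 under vehicle within the negative set and -0.83 under ifetroban within the positive set. Whether the label of the library labelled WT vehicle 1 is right was not tested. A wrong label would touch every WT mean and every genotype value. Cardiomyocyte markers summed to 31400 to 38900 CPM in KO libraries and 36300 to 43300 CPM in WT libraries and all 5 were detected in each group. Markers of the atrium (4 of 5 in the files) summed to 15.5 to 21.2 CPM in KO libraries and 17.4 to 22.7 CPM in WT libraries.

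The enzymes spanned a wide range of levels. Scaled by the longest coding transcript, Ptgds, lipocalin-type prostaglandin D synthase, averaged 462 CPM per kb over the 9 libraries. It stood at the percentile 99.4 of the tested protein-coding genes with a length. Ptges3 followed at 22.4, Ptges2 at 9.08, Ptgis at 8.74, Hpgd at 2.94, Ptgs1 at 2.02, Pla2g4a at 1.38, Hpgds at 0.814, Ptgs2 at 0.471 and Ptges at 0.323 CPM per kb. The ranges over libraries did not overlap between Ptgds (316 to 697) and Ptges3 (28.6 at its highest), nor between Ptges3 and Ptges2 (7.99 to 10.2). They did overlap between Ptges2 and Ptgis (4.39 to 12.8), and between each neighbouring pair from Hpgd downward. Between libraries, Ptgs2 varied most, with its highest level 10.3 times its lowest, and Ptges2 varied least, at 1.28 times.

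**Figure D1:**
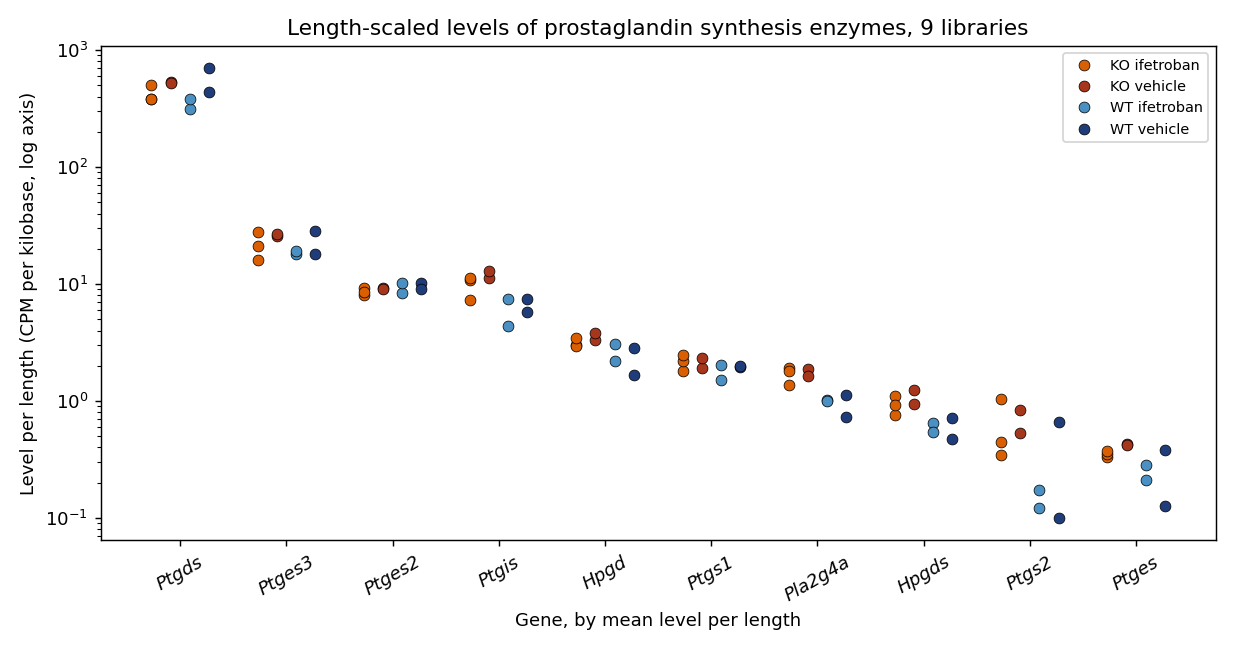
Length-scaled level (CPM per kb of the longest coding transcript, log axis) of each enzyme, 1 point for each of 9 libraries, with colours for the 4 groups. Ptgds averaged 462 CPM per kb and Ptges 0.323 CPM per kb, and the points of Ptgs2 spread farthest.

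In KO over WT hearts, with treatment as a second term in the model, 2 of the 10 enzymes passed the threshold of adjusted p under 0.05 (edgeR's quasi-likelihood test, Benjamini-Hochberg adjustment over 15549 genes): Pla2g4a at the entry of the pathway and Ptgis, which makes prostacyclin. Both rose. Over all genes tested, 2.33% passed. Their levels were 1.78 times (Pla2g4a) and 1.74 times (Ptgis) those of WT in the model. At an unadjusted p under 0.05, 5 enzymes (these with Ptgs2, Hpgds and Hpgd) were higher and 0 lower, against 9.31% of all genes higher and 16.1% in either direction. The median log2 change of the 10 was 0.52, against -0.02 over all genes tested, and 9 of the 10 values were positive. In 2 enzymes, Pla2g4a and Hpgds, every KO library lay above every WT library, which 4.62% of all genes showed.

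Pla2g4a (chromosome 1, 149829618 to 149961290, minus strand, mm10) encodes cytosolic phospholipase A2 alpha, which releases arachidonic acid. Its level was 5.43, 3.88 and 5.21 CPM in KO ifetroban and 5.35 and 4.66 CPM in KO vehicle, against 2.91 and 2.83 CPM in WT ifetroban and 3.23 and 2.07 CPM in WT vehicle. The lowest KO library lay above the highest WT library, which was the one labelled WT vehicle 1. The log2 change was 0.83 ± 0.17 (SE; edgeR, adjusted p = 0.0353, higher in 5 of 5 KO libraries). Leaving out the library labelled WT vehicle 1 gave 0.94 (adjusted p = 0.0297). The call was lost when any of 7 other libraries was left out, with log2 changes of 0.70 to 0.86 and adjusted p of 0.0533 (without KO ifetroban replicate 1), 0.0738 (without KO ifetroban replicate 3), 0.138 and 0.0753 (leaving out KO vehicle replicate 1 or 2), 0.0954 and 0.137 (without WT ifetroban replicate 1 or 2) and 0.0823 (without WT vehicle replicate 2). The value was 0.64 under vehicle within the negative set and 0.68 under ifetroban within the positive set. Over both treatments with the slope set as a term it was 0.67 (adjusted p = 0.0532).

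Ptgis (chromosome 2, 167191805 to 167240604, minus strand) encodes prostacyclin synthase, the cytochrome P450 that makes the vasodilator prostacyclin. It stood at 22.9, 15.5 and 23.7 CPM in KO ifetroban and 23.9 and 27.1 CPM in KO vehicle, against 15.7 and 9.24 CPM in WT ifetroban and 15.6 and 12.1 CPM in WT vehicle. The groups overlapped through KO ifetroban replicate 2, and the other 4 KO libraries lay above all WT libraries. The log2 change was 0.80 ± 0.18 (SE; edgeR, adjusted p = 0.0475). It came to 0.87 once the library labelled WT vehicle 1 was dropped. In the negative set the change was 0.71 under vehicle, against that same library as the 1 WT sample. In the positive set it was 0.66 under ifetroban. Over both treatments with the slope set as a term it was 0.68 (adjusted p = 0.113). The adjusted p lay above 0.05 with 1 library fewer in 6 cases: 0.0677 and 0.0931 without KO ifetroban replicate 1 or 3, 0.130 and 0.124 without KO vehicle replicate 1 or 2, 0.187 without WT ifetroban replicate 2 and 0.121 without WT vehicle replicate 2. The adjusted p was 0.0511 with median-of-ratios size factors. At its 3′ end Ptgis overlaps the antisense transcript 1110018N20Rik (46 to 111 counts a library, against 222 to 674 for Ptgis), and since no source used here says that counting used strand, their reads cannot be told apart.

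**Figure D2:**
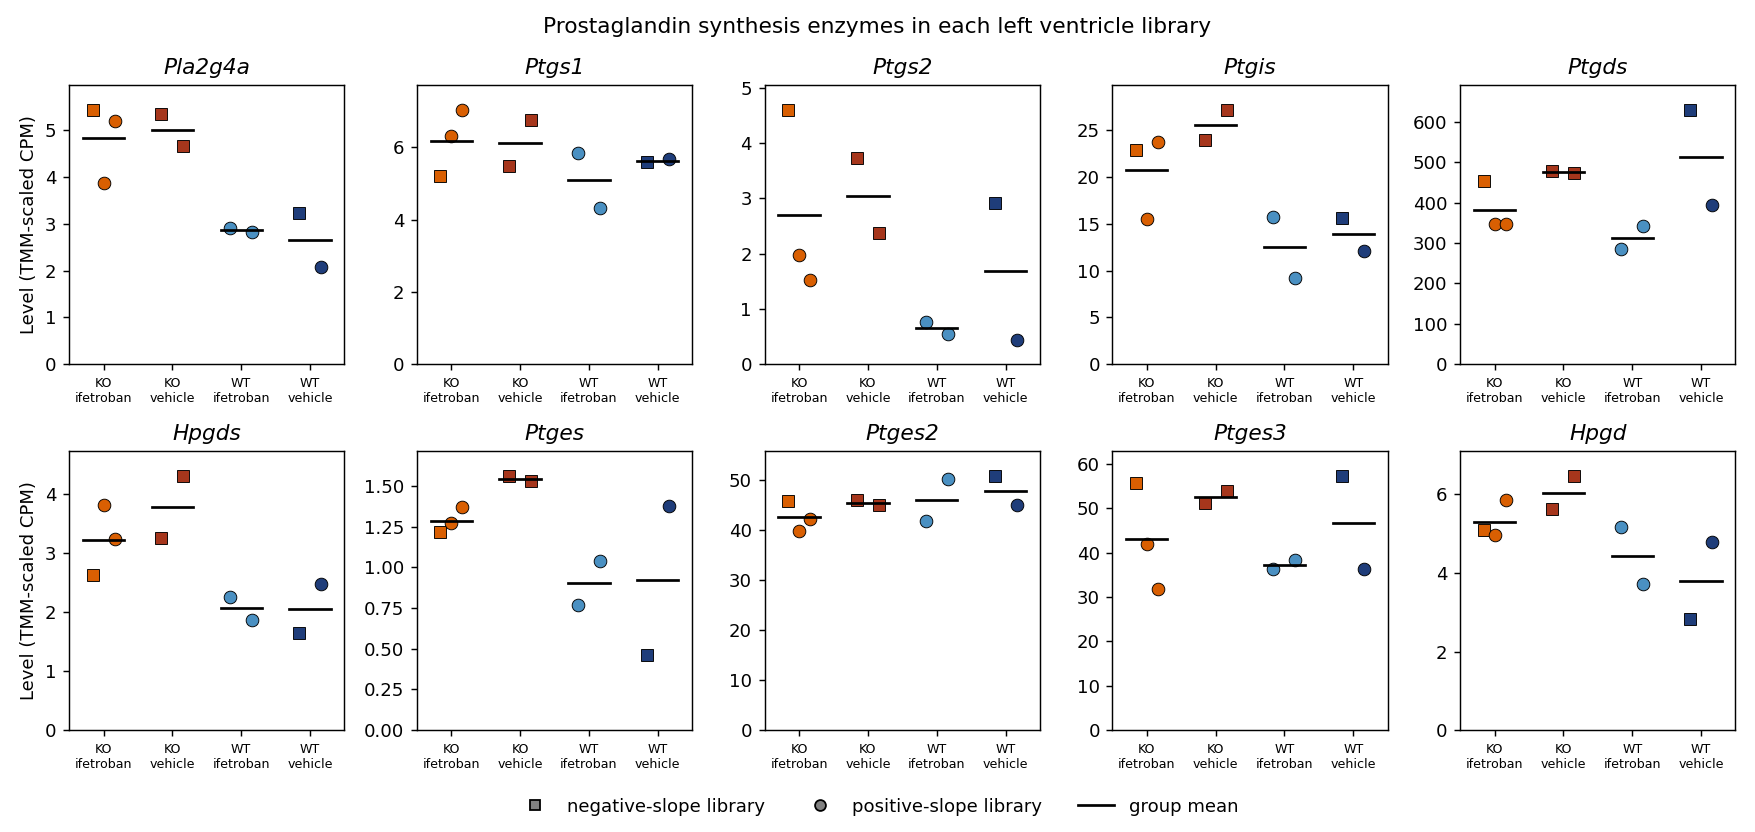
Level (TMM-scaled CPM, axes from 0) of each of the 10 enzymes in each library, 1 point a library (squares for the negative-slope set, circles for the positive-slope set), with a line at each group mean, for KO ifetroban, KO vehicle, WT ifetroban and WT vehicle. Pla2g4a and Hpgds show all 5 KO points above all 4 WT points, and Ptgis all but the 15.5 CPM of KO ifetroban replicate 2.

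Levels of cell type markers are set beside these rises. All 5 macrophage markers had counts in every group, and their summed level was 115 to 151 CPM in KO ifetroban and 124 to 138 CPM in KO vehicle, against 79.6 to 99.0 CPM in WT ifetroban and 75.8 to 90.9 CPM in WT vehicle. Of these markers, 4 of 5 passed the threshold as higher in KO over both treatments. The 5 fibroblast markers summed to 626 to 763 CPM in KO ifetroban and 830 to 906 CPM in KO vehicle, against 562 to 565 CPM in WT ifetroban and 541 to 563 CPM in WT vehicle, and 1 of 5 passed. Markers of endothelium, a known site of prostacyclin synthesis, summed to 586 to 761 CPM in KO libraries and 523 to 799 CPM in WT libraries. Platelet markers, of cells rich in cyclooxygenase-1 and thromboxane synthase, summed to 13.2 to 27.8 CPM in KO libraries and 7.74 to 19.6 CPM in WT libraries (0 of 5 passed with edgeR, 2 at an unadjusted p under 0.05). Lymphocyte markers summed to 1.83 to 2.61 CPM in KO libraries and 1.04 to 1.62 CPM in WT libraries, and adipocyte markers (4 of 5 in the files) to 0.655 to 2.39 CPM in KO libraries and 0.00 to 0.526 CPM in WT libraries, with Adipoq at 0 in WT. The 1 tested adipocyte marker, Cfd, passed (2.58 ± 0.57, edgeR, adjusted p = 0.0445), with every KO library above every WT library. Mesothelial markers summed to 6.46 to 14.4 CPM in KO libraries and 5.69 to 12.9 CPM in WT libraries, and those of smooth muscle and pericytes to 873 to 1120 CPM in KO libraries and 841 to 1080 CPM in WT libraries. The part of these cells in the changes was not tested. In bulk tissue, more cells of a type and more RNA per cell cannot be told apart.

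The cyclooxygenases differed in their spread. Ptgs1 (chromosome 2, 36230426 to 36252272, plus strand), the constitutive cyclooxygenase-1, lay at 5.20 to 7.02 CPM in KO libraries and 4.33 to 5.85 CPM in WT libraries, with a log2 change of 0.21 ± 0.14 (edgeR, adjusted p = 0.519). It overlaps the opposite-strand gene Gm43621, which had 0 to 3 counts a library. Ptgs2 (chromosome 1, 150100031 to 150108227, plus strand) encodes cyclooxygenase-2, which many cells make on stimulation. It was measured at 4.59, 1.97 and 1.53 CPM in KO ifetroban and 3.72 and 2.37 CPM in KO vehicle, against 0.767 and 0.541 CPM in WT ifetroban and 2.92 and 0.445 CPM in WT vehicle, from 11 to 98 counts a library. All WT libraries but the one labelled WT vehicle 1 lay below every KO library. The log2 change was 1.44 ± 0.53 (edgeR, adjusted p = 0.212), and 2.27 (adjusted p = 0.0257) without that library. It was 0.07 under vehicle within the negative set, which holds 1 WT library, and 1.44 under ifetroban within the positive set. The start of Ptgs2 lies 139 kb from that of Pla2g4a, the pair pointing away from each other with 1 deposited gene, Ptgs2os, between them.

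Among the other terminal synthases, Hpgds (chromosome 6, 65117293 to 65144908, minus strand), the hematopoietic prostaglandin D synthase known from mast cells and macrophages, had 2.62, 3.81 and 3.23 CPM in KO ifetroban and 3.26 and 4.30 CPM in KO vehicle, against 2.26 and 1.87 CPM in WT ifetroban and 1.64 and 2.47 CPM in WT vehicle. The genotypes did not overlap, the lowest KO library (2.62) lying just above the highest WT library (2.47). The log2 change of 0.75 ± 0.19 did not pass with edgeR (adjusted p = 0.0812) and passed with the Wald test of DESeq2 (adjusted p = 0.0195) and with the slope set as a term (0.93, adjusted p = 0.0288). It was 1.20 under vehicle within the negative set and 0.79 under ifetroban within the positive set. Mast cell markers (6 of 6 in the files, Ms4a2 at 0 in both WT ifetroban libraries) summed to 7.22 to 10.7 CPM in KO libraries and 7.18 to 10.1 CPM in WT libraries, and 0 of the 5 tested passed (edgeR; 0 also at an unadjusted p under 0.05).

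Ptgds (chromosome 2, 25466709 to 25470046, minus strand) had 453, 347 and 347 CPM in KO ifetroban and 477 and 474 CPM in KO vehicle, against 285 and 341 CPM in WT ifetroban and 628 and 395 CPM in WT vehicle. The genotypes overlapped, with the library labelled WT vehicle 1 the highest of the 9, and the log2 change was 0.11 ± 0.16 (edgeR, adjusted p = 0.770). Under another setting this sign turned: it was -0.08 with the slope set as a term and -0.00 with KO ifetroban replicate 1 counted as vehicle. Within the negative set the change under vehicle was -0.39, against -0.10 under vehicle with all libraries in the fit. The prostaglandin E synthases were level or scarce. Ptges (chromosome 2, 30889471 to 30929863, minus strand), the inducible microsomal enzyme, had 1.22 to 1.56 CPM in KO libraries and 0.462 to 1.38 CPM in WT libraries, from 9 to 41 counts, and a log2 change of 0.60 ± 0.29 (edgeR, adjusted p = 0.345). Within the negative set it was 1.73 under vehicle, and within the positive set 0.56 under ifetroban. Ptges2 (chromosome 2, 32395896 to 32405772, plus strand) lay at 39.8 to 46.0 CPM in KO libraries and 41.8 to 50.8 CPM in WT libraries, with a log2 change of -0.10 ± 0.09 (edgeR, adjusted p = 0.637). Ptges3 (chromosome 10, 128058954 to 128077272, plus strand), which encodes the Hsp90 cochaperone p23 also described as cytosolic prostaglandin E synthase, had 31.9 to 55.6 CPM in KO libraries and 36.3 to 57.2 CPM in WT libraries. Its log2 change was 0.19 ± 0.17 (edgeR, adjusted p = 0.613), and -0.06 with the slope set as a term. The deposited values of Ptges3 and Ptgds were not whole (tolerance 0.01) in 9 and 8 libraries, so part of their counts was assigned in fractions, while the other 8 enzymes held whole counts in all libraries.

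Hpgd (chromosome 8, 56294552 to 56321046, plus strand) encodes 15-hydroxyprostaglandin dehydrogenase, which starts the breakdown of prostaglandin E2. It had 5.10, 4.96 and 5.85 CPM in KO ifetroban and 5.62 and 6.46 CPM in KO vehicle, against 5.17 and 3.71 CPM in WT ifetroban and 2.82 and 4.78 CPM in WT vehicle. Only WT ifetroban replicate 1 reached the KO range. The log2 change was 0.44 ± 0.18 (edgeR, adjusted p = 0.274). It was 1.1 under vehicle within the negative set and 0.30 under ifetroban within the positive set.

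**Figure D3:**
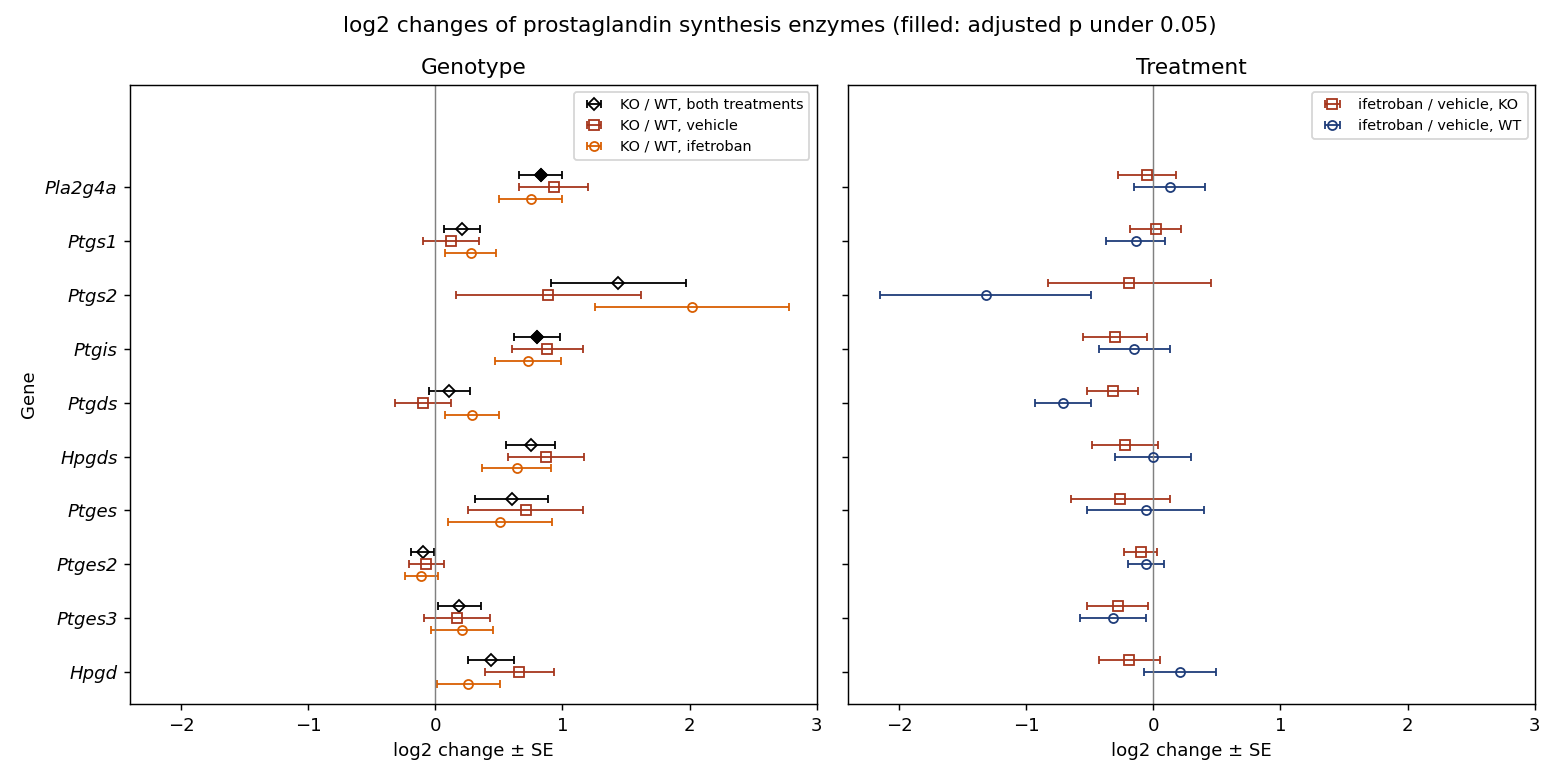
Log2 change of each enzyme with its SE, left for KO over WT under vehicle, under ifetroban and over both treatments, right for ifetroban over vehicle in KO and in WT, with filled markers for an adjusted p under 0.05. Pla2g4a at 0.83 and Ptgis at 0.80 over both treatments are the filled markers, and the widest bars belong to Ptgs2.

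Within each treatment the libraries are fewer. Under vehicle, KO against WT, 0 of the 10 passed with edgeR, and likewise 0 with limma-voom and with DESeq2, where 0.0515% of all genes passed with edgeR. At an unadjusted p under 0.05, 4 enzymes were higher and 0 lower, against 5.21% of genes higher and 7.90% in either direction: Pla2g4a (0.93 ± 0.27, adjusted p = 0.375), Ptgis (0.88 ± 0.28, adjusted p = 0.413), Hpgds (0.87 ± 0.30, adjusted p = 0.462) and Hpgd (0.66 ± 0.27, adjusted p = 0.582). These 4 and Ptges lay higher in both KO libraries than in both WT libraries, which 18.3% of all genes did, and the median log2 change was 0.68. When the library labelled WT vehicle 1 was dropped, the values of Pla2g4a and Ptgis were 1.28 and 1.08, those of Hpgds and Hpgd 0.62 and 0.34, that of Ptges 0.17 against 0.71 with it, and that of Ptgs2 2.77 against 0.89 with it.

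Under ifetroban, KO against WT, again 0 of the 10 passed with edgeR, limma-voom or DESeq2, where 0.0386% of all genes passed with edgeR. At an unadjusted p under 0.05, 4 enzymes were higher, against 6.24% of genes higher and 9.36% in either direction: Ptgs2 (2.02 ± 0.76, adjusted p = 0.427), Pla2g4a (0.75 ± 0.25, adjusted p = 0.343), Ptgis (0.73 ± 0.26, adjusted p = 0.394) and Hpgds (0.64 ± 0.27, adjusted p = 0.507). In Pla2g4a, Ptgs2, Ptgds, Hpgds and Ptges all 3 KO libraries lay above both WT libraries, which 14.0% of all genes did, and the median log2 change was 0.40. The comparisons under vehicle (4 libraries) and under ifetroban (5 libraries) share 1 estimate of the spread and no library, and the one over both treatments draws on all 9, so it is not separate evidence from either.

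Ifetroban over vehicle in KO hearts passed for 0 of the 10 with edgeR, and 0 at an unadjusted p under 0.05. Over all genes 0.00% passed and 3.96% had an unadjusted p under 0.05, and limma-voom and DESeq2 also gave 0. The log2 changes ran from -0.32 (Ptgds) to 0.02 (Ptgs1), 9 of 10 were negative, and the median was -0.21, against 0.01 for all genes. Ptgis, Ptgds and Ptges were lower in all 3 ifetroban libraries than in both vehicle libraries, which 9.76% of all genes showed. Their changes were -0.30 ± 0.25 for Ptgis, -0.32 ± 0.20 for Ptgds and -0.26 ± 0.39 for Ptges (edgeR, adjusted p = 0.862, 0.862 and 0.888). With the slope set as a term, 5 of the 9 negative values turned positive: Pla2g4a at 0.21, Ptgs2 at 0.85, Ptgds at 0.01, Ptges2 at 0.01 and Ptges3 at 0.10. Both KO vehicle libraries are in the negative set and 2 of the 3 KO ifetroban libraries in the positive set. Within the negative set, where KO ifetroban is 1 library, replicate 1, whose treatment label says vehicle, Ptgds gave -0.07 and Ptgis -0.15. With that replicate counted as vehicle, 2 of the 10 and 3451 of 15549 genes had an unadjusted p under 0.05 in place of 0 and 615, and with it left out, 2 of the 10 and 2274 genes. None of the 10 passed the adjusted threshold in either fit (edgeR).

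In WT hearts, ifetroban over vehicle passed for 0 of the 10 with edgeR, limma-voom or DESeq2, and over all genes for 0.00%. Ptgds was the 1 enzyme with an unadjusted p under 0.05 (edgeR), against 2.25% of genes in either direction and 1.22% lower: its change was -0.71 ± 0.22 (adjusted p = 0.881, lower in 2 of 2 ifetroban libraries). It was also the 1 enzyme lower in both ifetroban libraries than in both vehicle libraries, which 13.8% of genes showed. The high value is the 628 CPM of the library labelled WT vehicle 1, and without it the change was -0.35 (adjusted p = 1.00). The change of Ptgs2 was -1.32 ± 0.83, and 0.54 without that library. The interaction, ifetroban's change in KO less that in WT, passed for 0 of the 10 with edgeR and for 0 at an unadjusted p under 0.05, where 0.00% and 1.92% of all genes did, and limma-voom and DESeq2 gave 0. It ran from -0.40 ± 0.37 for Hpgd to 1.12 ± 1.05 for Ptgs2. The value of Ptgs2 was -0.72 with the library labelled WT vehicle 1 dropped, 1.95 without WT vehicle replicate 2 and 0.33 with limma-voom, and that of Hpgd -0.06 and -0.84 in those fits without WT vehicle 1 or 2. The value of Ptges was -0.20, and 0.36 and -1.22 without WT vehicle 1 or 2. Leaving out either of these left 1 library in that group, assumed to vary like the other groups.

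Ptgs2, Ptgds and Ptges3 separated the libraries by the sign of the length slope without overlap. Ptgs2 had 2.37 to 4.59 CPM in the 4 libraries of the negative set and 0.445 to 1.97 CPM in the 5 of the positive set. Ptgds had 453 to 628 CPM in the negative set and 285 to 395 CPM in the positive set, and Ptges3 had 51.1 to 57.2 CPM in the negative set, with all 5 libraries of the positive set lower and the lowest at 31.9 CPM. The other 7 enzymes overlapped between the sets. The sets were drawn from transcript length over 13051 genes, and what sets them apart was not tested. The share of all genes that separated in this way was not counted, so the separation cannot be called particular to these enzymes.

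**Figure D4:**
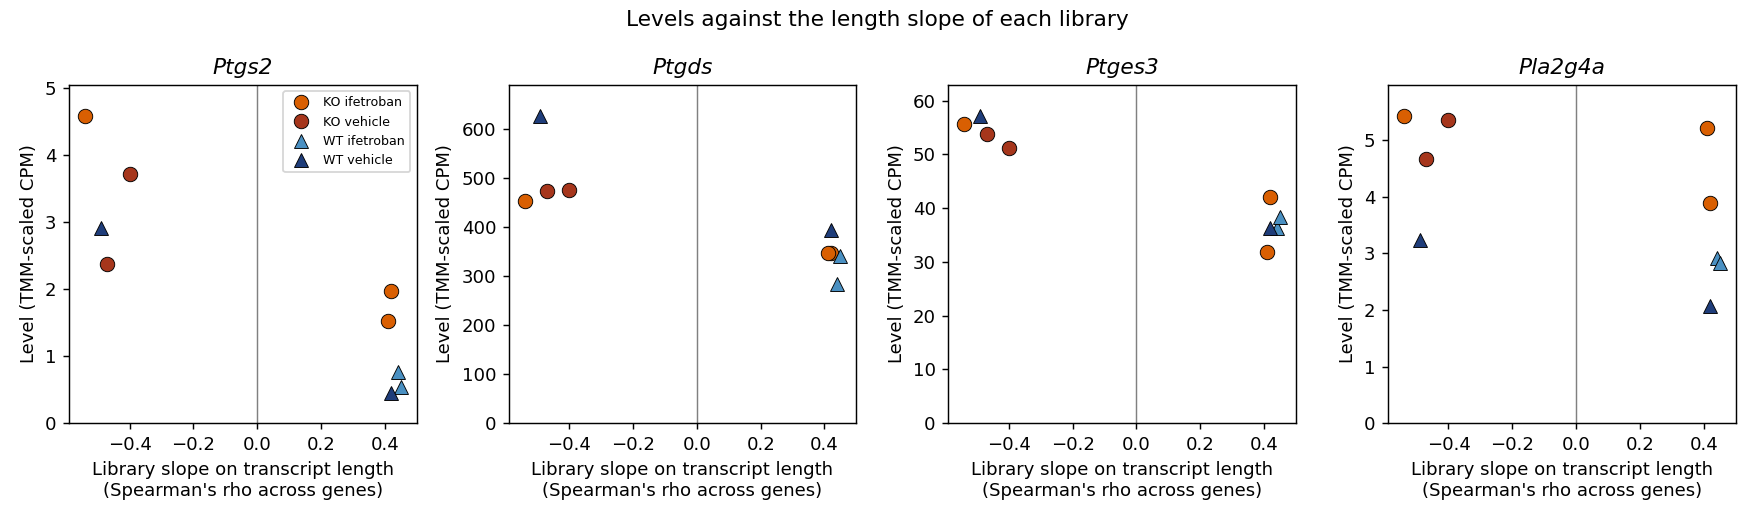
Level (TMM-scaled CPM) of Ptgs2, Ptgds, Ptges3 and Pla2g4a against the length slope of each library (Spearman's rho across genes), 1 point for each of 9 libraries, coloured by group. The 4 libraries left of 0 are higher than the 5 right of 0 in Ptgs2, Ptgds and Ptges3, and overlap with them in Pla2g4a.

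The genes most alike the enzymes over the 9 libraries were taken as those with the highest Pearson r of log2 CPM. For Ptgis these were Gusb (0.971) and Rcn3 (0.970), and for Ptgs2 Emp3 (0.989) and the pseudogene Cd63-ps (0.984). Ptges3 stood closest to Rpl23 (0.986) and Hspb2 (0.978), Hpgds to Krt18 (0.949) and Col3a1 (0.948), and Hpgd to Chst14 (0.961) and Bmper (0.959). The 9 points share genotype, treatment and the split by length, so these values describe likeness across these libraries and are not tests.

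Of 36 other symbols of the pathway, 31 were in the files and 26 were tested. Over both treatments, 2 of the 26 rose in KO and 0 fell, against 2.33% of all genes, and their median log2 change was -0.07, against -0.02 for all genes. Tbxas1 (chromosome 6, 38875404 to 39084585, plus strand), thromboxane synthase, had 4.21, 3.18 and 3.79 CPM in KO ifetroban and 3.57 and 3.13 CPM in KO vehicle, against 1.66 and 1.58 CPM in WT ifetroban and 1.44 and 2.31 CPM in WT vehicle. Every KO library lay above every WT library, and the log2 change was 1.03 ± 0.19 (edgeR, adjusted p = 0.0231). Macrophages also make this enzyme, and their markers moved with genotype as given above. Their part in the change of Tbxas1 was not tested. The call was lost without KO vehicle replicate 1 (1.04, adjusted p = 0.0885), without WT ifetroban replicate 1 (0.99, adjusted p = 0.0852) and without WT ifetroban replicate 2 (0.97, adjusted p = 0.112). The change was 1.23 under vehicle within the negative set and 1.12 under ifetroban within the positive set.

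Slco2a1 (chromosome 9, 102988712 to 103096002, plus strand), the prostaglandin transporter that carries prostaglandins into cells, had 4.40, 4.39 and 5.49 CPM in KO ifetroban and 4.25 and 4.06 CPM in KO vehicle, against 2.66 and 2.87 CPM in WT ifetroban and 1.80 and 3.04 CPM in WT vehicle. The genotypes did not overlap, and the log2 change was 0.77 ± 0.17 (edgeR, adjusted p = 0.0450). The call held in 2 of the 9 fits that left out a library, those leaving out KO ifetroban replicate 1 (adjusted p = 0.0490) or WT vehicle replicate 2 (0.0396). In the other 7 the change was 0.68 to 0.80, with adjusted p of 0.0709 and 0.0855 without KO ifetroban replicate 2 or 3, 0.134 and 0.0955 without KO vehicle replicate 1 or 2, 0.137 and 0.158 without WT ifetroban replicate 1 or 2, and 0.0504 when the library labelled WT vehicle 1 was dropped. Within the negative set the change under vehicle was 1.21, and within the positive set that under ifetroban was 0.85.

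Over both treatments, 0 of the 5 tested prostanoid receptors passed with edgeR. At an unadjusted p under 0.05 it was also 0, against 16.1% of all genes. Tbxa2r, the receptor that ifetroban blocks, had 3.23, 1.81 and 3.79 CPM in KO ifetroban and 5.24 and 5.06 CPM in KO vehicle, against 3.43 and 1.87 CPM in WT ifetroban and 2.41 and 3.12 CPM in WT vehicle. Its level in both KO vehicle libraries lay above all the others, and its log2 change over both treatments was 0.49 ± 0.27 (edgeR, adjusted p = 0.403). The change was 1.1 under vehicle within the negative set and 0.08 under ifetroban within the positive set. With all 9 libraries in the fit, the genotype change of Tbxa2r under vehicle was 0.89 ± 0.38 (edgeR, unadjusted p = 0.0405, adjusted p = 0.592). Under ifetroban it was 0.14 ± 0.35 (edgeR, adjusted p = 0.925). Among 11 tested genes of arachidonate release and return, 0 passed over both treatments with edgeR. There, 2 had an unadjusted p under 0.05, against 16.1% of all genes, and the median log2 change was -0.10. Pla2g15, a lysosomal phospholipase, was at 0.31 ± 0.09 (adjusted p = 0.110) and the phospholipase Pnpla8 at -0.23 ± 0.09 (adjusted p = 0.223).

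In the other comparisons 0 of the 26 pathway genes passed with edgeR. Under vehicle, KO against WT, 6 were higher and 0 lower at an unadjusted p under 0.05. Of all genes, 5.21% were higher and 7.90% passed in either direction. The smallest p belonged to Ptgr1, prostaglandin reductase 1, at 0.96 ± 0.28 (edgeR, adjusted p = 0.375) and to Tbxas1 at 0.83 ± 0.28 (adjusted p = 0.456). Under ifetroban, 3 were higher and 2 lower, against 6.24% of all genes higher and 9.36% in either direction. The smallest p belonged to Tbxas1 at 1.20 ± 0.26 (edgeR, adjusted p = 0.138) and Slco2a1 at 0.78 ± 0.24 (adjusted p = 0.306). For ifetroban over vehicle in KO, 0 were higher and 2 lower, against 3.96% of all genes in either direction. These were Ptgr1 at -0.62 ± 0.24 and Tbxa2r at -0.82 ± 0.33 (edgeR, both adjusted p = 0.862). In WT, 0 of the 26 had an unadjusted p under 0.05, against 2.25% of all genes. The smallest p belonged to Abcc4 at 0.40 ± 0.20 and Akr1b3 at -0.37 ± 0.19 (edgeR, both adjusted p = 0.881). For the interaction it was likewise 0, against 1.92% of all genes, with Ptgr1 at -0.75 ± 0.38 and Lpcat3 at 0.36 ± 0.20 (both adjusted p = 1.00).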

How the data were processed

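The measurements were RNA-seq gene levels in 9 left ventricle libraries, grouped by title and source name. The authors deposited expected counts per gene, of which 27.6% were not whole. Per the submitters' processing notes, bcl2fastq, STAR and Partek were used with mm10, with no version given, and how reads were counted is not given in these sources. Values were rounded to whole numbers, filterByExpr (minimum count 10) left 15549 genes, and TMM factors scaled the libraries. The robust quasi-likelihood test of edgeR 4.0.16 (R 4.3.3) was fitted to 4 group means, and to genotype plus treatment for genotype over both treatments, with Benjamini-Hochberg adjustment over all genes and a threshold of 0.05. SE is the log2 change divided by the square root of F. Depth was 21510263 to 30182955 counts a library, and replicates differed by more than sampling noise (chi-square per degree of freedom 11.0 to 65.4).

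Coordinates are those deposited, with 1 subtracted from the end, which gave the bounds of GENCODE M21 for 15571 of 19704 shared symbols, against 70 otherwise. Lengths are of the longest coding GENCODE M21 transcript. Named genes were the 10 enzymes, Sgcd, Tbxa2r, the 2 genes most alike an enzyme in log2 CPM (prior count 2; for some enzymes not reported here) and, of the pathway list, genes past the threshold or, where none passed, the 2 with the smallest p. Pathway genes, marker lists and members were chosen with earlier results of these data known. Alternatives were median-of-ratios size factors, DESeq2 1.42.0, limma-voom (limma 3.58.1), no filter, a replicate block, KO ifetroban replicate 1 counted as vehicle, the sign of the length slope as a term or alone, and each library left out. On simulated counts, the test of genotype over both treatments recovered 77% of genes changed by 1 and 93% of those changed by 2 on the log2 scale, with 6 false calls among 15345 genes. Of genes changed by 1, genotype under vehicle recovered 52% and genotype under ifetroban 49%. Ifetroban in KO recovered 44%, ifetroban in WT 52% and the interaction 10%. The simulated libraries held no split by transcript length.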

Additional observations from a re-analysis of the deposited data

How the results depend on the processing

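Of 932 alternative values of the log2 changes, 64 changed sign, and each of these had a change that did not pass the threshold. The number of enzymes past it for genotype over both treatments, 2, was 1 with median-of-ratios size factors, 1 with the slope sign as a term, 1 in the negative-slope libraries alone, 0 in the positive-slope libraries alone, and 0 to 3 with a library left out. In the negative-slope libraries, genotype over both treatments is the same fit as genotype under vehicle, and not a separate result. Its WT arm is the 1 library labelled WT vehicle 1, assumed to vary like the others. In the positive-slope libraries it is likewise genotype under ifetroban. Over all genes, the count for genotype over both treatments was 363, and 51 to 896 under the alternatives, that under vehicle was 8, and 2 to 247 (the highest from that same fit), that under ifetroban was 6, and 2 to 290, and that of ifetroban in KO was 0, and 0 to 18. Interaction values are not among the 932; that of Ptgs2 turned negative, -0.72, without the library labelled WT vehicle 1. The interaction was not fitted in the slope sets, and neither were comparisons without both groups in a set.

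Same-numbered samples were not paired. The correlation across genes of the difference of replicate 1 from replicate 2 was 0.48 between WT vehicle and KO ifetroban. It was -0.04 to 0.04 in the other pairs of groups. Only in WT vehicle and KO ifetroban do replicates 1 and 2 lie in opposite slope sets. The 0.48 thus cannot be told apart from the split by transcript length. With replicate number as a block, 3 enzymes passed over both treatments, Ptgs2 joining at 1.64 (edgeR, adjusted p = 0.0414), with 550 genes in all. Of the pathway genes, Slco2a1 lost its call (0.72, adjusted p = 0.0588). Ifetroban in KO then gave -0.08 for Ptgs1 and 0.02 for Ptgs2, and ifetroban in WT 0.04 for Hpgds.

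Sign changes of genotype were as follows. For Ptges3, under vehicle -0.11 with the slope term and -0.12 in the negative set, under ifetroban -0.02 with the term and -0.01 with KO ifetroban replicate 1 counted as vehicle, and over both treatments -0.06 with the term. For Ptgds over both treatments the values were -0.08 with the term and -0.00 with that replicate as vehicle. Its -0.39 in the negative set is a value under vehicle, where the main fit gave -0.10. For Sgcd the negative set gave 0.13 under vehicle, resting on the 1 library labelled WT vehicle in it.

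Sign changes of ifetroban in KO were, with the term, 0.21 for Pla2g4a, -0.13 for Ptgs1, 0.85 for Ptgs2, 0.01 for Ptgds, 0.01 for Ptges2 and 0.10 for Ptges3, and in the negative set 0.12 for Pla2g4a, -0.23 for Ptgs1, 0.59 for Ptgs2, 0.01 for Ptges2 and 0.09 for Ptges3. Hpgds gave 0.05 with that replicate as vehicle. In WT they were 0.00 for Ptgis, 0.03 for Ptges2 and 0.02 for Ptges3 with the term, 0.54 for Ptgs2, 0.03 for Ptgis, 0.02 for Ptges2, 0.03 for Ptges3 and -0.12 for Hpgd in the positive set, 0.00 for Hpgds and 0.08 for Ptges with limma-voom, and 0.01 for Hpgds with no filter.

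With a library left out, genotype under vehicle ranged from -0.04 to 0.25 for Ptgs1, -0.40 to 0.27 for Ptgds, -0.16 to 0.02 for Ptges2 and -0.13 to 0.54 for Ptges3, and under ifetroban from -0.24 to 0.02 for Ptges2 and -0.01 to 0.40 for Ptges3. Ifetroban in KO ranged from -0.15 to 0.10 for Pla2g4a, -0.12 to 0.18 for Ptgs1 and -0.79 to 0.18 for Ptgs2. In WT it ranged from -0.17 to 0.46 for Pla2g4a, -0.38 to 0.06 for Ptgs1, -2.15 to 0.54 for Ptgs2, -0.58 to 0.18 for Ptgis, -0.27 to 0.33 for Hpgds, -0.62 to 0.96 for Ptges, -0.20 to 0.07 for Ptges2, -0.62 to 0.03 for Ptges3 and -0.12 to 0.65 for Hpgd. The cause of these changes was not tested. Where 1 library of a group was left, it was assumed to vary like the other groups. The lowest counts were those of Ptges (9 to 41 a library) and Ptgs2 (11 to 98).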
